A study of Mus musculus with 216 samples.

Results

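Lung RNA of male mice at 27 months of age was compared with lung RNA at 6 months. The 2 groups were chosen by the age and tissue on their labels, and held 12 libraries each, 24 of the 216 libraries of a study that sequenced 6 tissues at 3 ages. Mice carried the strain name C57B6/J-NIA at all ages, with no genotype, allele or treatment on any label. The 6-month group is called young, the 27-month group old, and the 12 lung libraries at 18 months, called aged, are given for context. In every group there was 1 library at each of 12 circadian times, 18 to 62 h in steps of 4 h, which span 2 daily cycles. Each library pooled 2 samples of that age and time, so the spread between single mice was not measured and p-values refer to the spread between pooled libraries. Whole lung was used, so that fewer cells of a type and less RNA per cell cannot be told apart in any value below.

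The lung exchanges gas across flat alveolar type 1 cells that lie on a shared basement membrane with capillary endothelium, while alveolar type 2 cells make surfactant and renew the epithelium. Club and ciliated cells line the airways, and alveolar macrophages clear the air spaces. The organ also holds a large blood bed, in which megakaryocytes are known to lodge and release platelets, and its pulmonary veins carry a sleeve of heart muscle in mice. With age, lungs are known to gather lymphocytes, at times in follicle-like clusters organised by the B cell chemokine Cxcl13.

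Total counts, in units of 1000000, were 20.99 to 25.8 per young library (median 23.5), 24.9 to 34.5 per aged library (median 29.6) and 2.70 to 14.1 per old library (median 9.24). All 12 old libraries were thus shallower than all young ones, and the old libraries at 42 and 34 h were the shallowest. The tissue label was checked on 6 lung genes. Each was higher in the lowest of the 24 lung libraries than in any young or old library of another tissue, with Sftpc at 3551 CPM or more in lung and at most 116 CPM elsewhere. CPM is the count of a gene over the total count of its library, times 1000000.

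A large share of the lung transcriptome differed between old and young libraries, which differed in depth too. The part of age in that share was not tested. With circadian time as a block, edgeR's quasi-likelihood test called 8370 of 16936 genes (49.4%) at a Benjamini-Hochberg adjusted p under 0.05, the threshold used throughout. Of these, 3683 were higher in old (21.7% of genes tested) and 4687 lower (27.7%), around a median log2 fold change of -0.02. Called changes of at least 2-fold were fewer, with 840 higher (4.96%) and 588 lower (3.47%). At all 12 times the sign was the same for 724 higher (4.27%) and 2141 lower genes (12.6%). Values did not overlap between the groups for 240 genes above (1.42%) and 876 genes below the young range (5.17%). Sizes given with an SE below are log2 fold changes unless a unit follows. These shares are the background against which each gene group is read. A direction can move with the scaling: 53.4% of called genes were higher with upper-quartile factors, against 44.0% with TMM. It moved under TMM too. With single times left out the share ran from 43.2% to 51.6%, and most called genes were higher without 18, 22, 42, 46 or 50 h. At equal depth it was 51.6%. The counts of signs and of ranges without overlap use CPM without such factors.

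**Figure D1:**
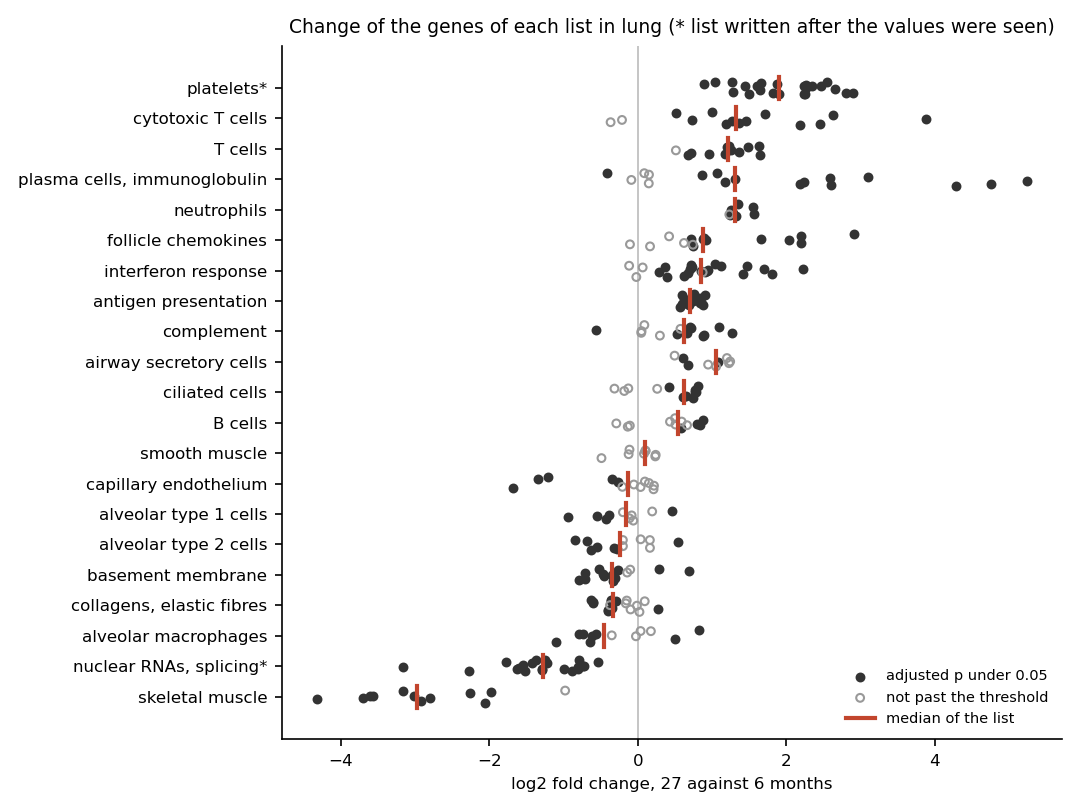
Each point is 1 gene of a list, placed by its log2 fold change at 27 against 6 months, filled where the adjusted p was under 0.05 and open where it was not; red bars mark list medians. Medians lay to the right of 0 for platelets (1.91) and T cells (1.22) and to the left for basement membrane (-0.34) and alveolar macrophages (-0.46), whose genes lie on both sides of 0, and lists with an asterisk were written after the values were seen. The other lists were written with earlier results of these data known.

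Genes of platelets and their parent cell, the megakaryocyte, were higher in old lung, and aged means lay between. Itga2b encodes the platelet integrin subunit that binds fibrinogen and lies at chr11:102453297-102470122 on GRCm38. It was at 22.4 to 57.7 CPM (median 40.1) at 6 months and 132 to 456 CPM (median 227) at 27 months. Every old library was above every young one (log2 fold change 2.66 ± 0.12 SE, adjusted p = 2.06e-09). Gp9, a subunit of the platelet receptor for von Willebrand factor (chr6:87778072-87779768), was at 4.38 to 17.9 CPM (median 9.09) at 6 months and 41.9 to 106 CPM (median 64.8) at 27 months, again without overlap (log2 fold change 2.90 ± 0.15 SE, adjusted p = 5.24e-09). Treml1, a receptor of platelet granules, was at 3.25 to 9.99 CPM (median 6.40) at 6 months and 22.6 to 85.5 CPM (median 40.5) at 27 months (log2 fold change 2.80 ± 0.12 SE, adjusted p = 8.13e-10). Their aged means of 113 ± 57.1, 28.1 ± 13.5 and 16.2 ± 9.15 CPM (SD, n = 12) fell between the young and old means. By the 3-age fit, aged exceeded young for Itga2b by 1.41 ± 0.18 SE on the log2 scale (adjusted p = 2.12e-05), and old exceeded aged by 1.26 ± 0.18 SE (adjusted p = 3.83e-06). These 2 tests share libraries with the comparison of the ends and are not independent of it.

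**Figure D2:**
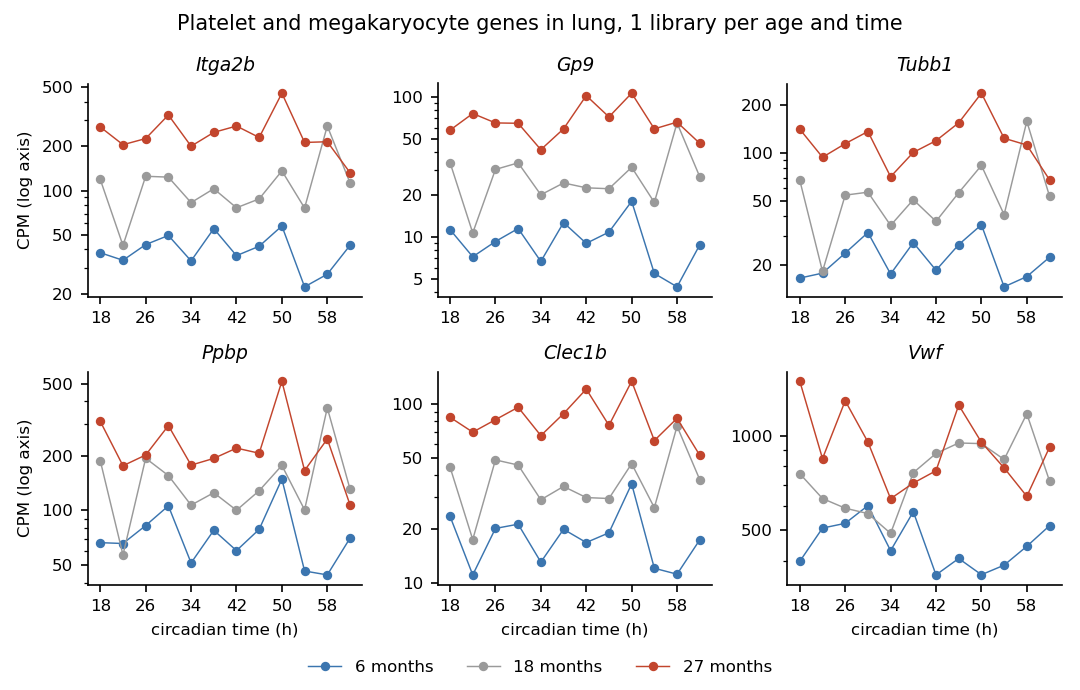
CPM on a log axis against circadian time for 6 platelet and megakaryocyte genes, with 1 point per library and 1 colour per age. Old libraries sit above young ones at each of the 12 times for all 6 genes, for example at 132 to 456 CPM (median 227) against 22.4 to 57.7 CPM (median 40.1) for Itga2b, with aged libraries at 42.6 to 273 CPM (median 108).

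Abundant platelet genes moved alike. Tubb1, the tubulin of the platelet's marginal band, rose from 22.4 ± 6.70 to 123 ± 44.3 CPM (SD, n = 12; log2 fold change 2.47 ± 0.13 SE, adjusted p = 5.76e-09). Clec1b, the podoplanin receptor, rose by 2.27 ± 0.12 SE, and Alox12, the platelet 12-lipoxygenase, by 2.25 ± 0.12 SE (adjusted p = 5.24e-09 and 8.05e-09). For Ppbp, the platelet basic protein, the groups overlapped at 44.2 to 149 CPM (median 68.4) against 108 to 516 CPM (median 205), yet old was higher at 12 of 12 times (log2 fold change 1.67 ± 0.13 SE). Ly6g6f, a surface protein of platelets, and Nrgn, a calmodulin-binding protein, rose by 2.68 ± 0.17 SE and 2.22 ± 0.18 SE without overlap.

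The list of 24 platelet and megakaryocyte genes was written after these values were seen, so its direction is a description. All 23 members tested were called higher, with a median log2 fold change of 1.91, and in 17 of them the groups did not overlap. Lineage transcription factors were among them: Nfe2 rose by 1.91 ± 0.16 SE and Gata1 by 1.88 ± 0.19 SE. Vwf, which endothelium makes too, was at 361 to 600 CPM (median 438) at 6 months and 631 to 1495 CPM (median 884) at 27 months and rose by 1.04 ± 0.13 SE. Summed over the list, the level was 732 to 1356 CPM (median 928) at 6 months and 1972 to 4584 CPM (median 2501) at 27 months. With the libraries of each time thinned to equal depth 22 members were called higher, where 24.6% of genes were. In the 8 libraries of the 4 times at which old held under 10 CPM of Rn7sk, a small RNA described below, all 23 were, where 13.9% of genes were. That choice of times was made after the values were seen. The rise was larger in lung than the mean rise in the 5 other tissues for 19 of the 23, where 11.5% of all genes tested were. These counts come from libraries on which the list was chosen, so nothing is read from them. For Itga2b the difference between lung and the other tissues was 2.22 ± 0.21 SE (adjusted p = 2.70e-13). Summed genes of red blood cells, a measure of blood in the sample, were also higher, at 1436 to 4750.5 CPM (median 1739) at 6 months and 2785 to 8096 CPM (median 3901) at 27 months. They were not higher in aged lung, at 1005 to 1964 CPM (median 1551). The part of blood content in the platelet result was not tested.

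Immunoglobulin genes gave some of the largest rises. Ighm, the heavy chain constant region of IgM at chr12:113418558-113422730, was at 51.2 to 356 CPM (median 149) at 6 months and 645 to 8398 CPM (median 1192) at 27 months. Its old values all exceeded the young ones, with 1 library far above the rest at 62 h (log2 fold change 3.10 ± 0.44 SE, adjusted p = 1.03e-04). Igkc, the kappa light chain constant region, was at 42.1 to 206 CPM (median 98.2) at 6 months and 382 to 2287 CPM (median 549.8) at 27 months (log2 fold change 2.58 ± 0.33 SE, adjusted p = 3.56e-05). For Ighg2c, an IgG heavy chain, young libraries ran from 0.647 to 72.6 CPM (median 2.66) and old ones from 30.9 to 481 CPM (median 154). The young libraries at 30, 46 and 54 h reached into the old range, and the log2 fold change was 5.24 ± 0.90 SE (adjusted p = 4.29e-04). Jchain, which joins IgM and IgA into polymers, rose from 62.02 ± 34.8 to 284 ± 183 CPM (log2 fold change 2.19 ± 0.42 SE, adjusted p = 9.55e-04). Of 17 tested genes of plasma cells and immunoglobulin constant regions, 12 were called higher and 1, Prdm1 (-0.42 ± 0.11 SE), lower, with a median of 1.31. Near-identical immunoglobulin genes can share reads, so single IgG genes and the variable segment Igkv3-2 (5.36 ± 0.68 SE) are uncertain. Part of the rise was seen at 18 months. Ighm was at 1036 ± 908 CPM in aged lung (SD, n = 12), and 6 genes of the list were higher in aged than in young, where 2.90% of genes were. At the 4 times with under 10 CPM of Rn7sk in old, 4 of the 12 passed.

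B cell genes moved less. Of 12 tested, Cd79a (0.88 ± 0.32 SE), Blk (0.79 ± 0.31 SE), Fcrla (0.59 ± 0.23 SE) and Spib (0.84 ± 0.33 SE) were called higher, not far from the background share, and 0 lower. With single times left out the count ran from 0 to 5, at 0 without 22, 42, 54 or 58 h, 1 without 18 or 34 h and 2 without 30 h. Without circadian times 34 and 42 edgeR called 0, with 2 at an unadjusted p under 0.05, where 20.8% of genes were higher. Ms4a1, a defining B cell surface marker, did not pass (0.50 ± 0.31 SE, adjusted p = 0.194).

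T cell genes were higher in old lung. Gzmk, a granzyme of effector memory CD8 T cells at chr13:113171608-113225908, was at 0.0476 to 0.814 CPM (median 0.277) at 6 months and 1.46 to 11.5 CPM (median 3.72) at 27 months. The groups did not overlap (log2 fold change 3.88 ± 0.39 SE, adjusted p = 2.37e-06). Ccl5, a chemokine released by cytotoxic T cells, was at 8.45 to 26.6 CPM (median 13.0) at 6 months and 28.6 to 112 CPM (median 62.04) at 27 months (log2 fold change 2.18 ± 0.19 SE, adjusted p = 8.74e-07), also without overlap. Tigit and Pdcd1, inhibitory receptors found on chronically stimulated T cells, rose by 2.63 ± 0.25 SE and 2.45 ± 0.35 SE from means of 0.401 ± 0.172 and 0.532 ± 0.294 CPM (SD, n = 12). Of the cytotoxic and exhausted T cell list 12 of 14 tested genes were called higher and none lower (median 1.32). Of 12 general T cell genes 11 were higher and none lower (median 1.22), among them Cd3e (1.18 ± 0.18 SE), Cd8b1 (1.65 ± 0.21 SE) and Lat (1.64 ± 0.10 SE), the adaptor of T cell receptor signalling. Lat is also made by platelets. The part of blood content in these rises was not tested. In aged lung 9 of the cytotoxic and 2 of the general genes were called higher than in young, where 2.90% of all genes were, and 7 of the general ones were under an unadjusted p of 0.05. The lists were not tested against each other.

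**Figure D3:**
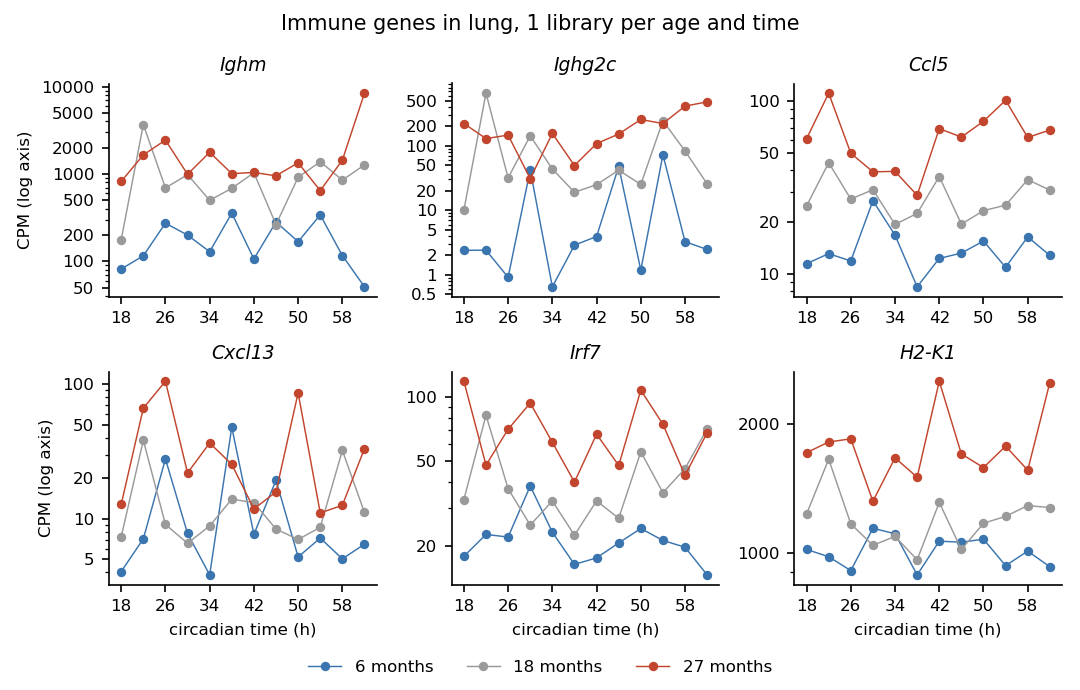
CPM on a log axis against circadian time for 6 immune genes, with 1 point per library and 1 colour per age. For Ighm, Ccl5, Irf7 and H2-K1 every old library lies above every young one, while Ighg2c and Cxcl13 overlap at single times, with young Cxcl13 at 47.8 CPM at 38 h.

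Cxcl13, the chemokine that draws B cells into follicles (chr5:95956951-95961068), was at 3.83 to 47.8 CPM (median 7.15) at 6 months and 11.1 to 105 CPM (median 23.6) at 27 months. The groups overlapped, since the young libraries at 38, 26 and 46 h reached 47.8, 27.8 and 19.4 CPM, and old was higher at 10 of 12 times (log2 fold change 1.66 ± 0.41 SE, adjusted p = 0.00484). Means were 12.4 ± 13.2 CPM in young and 13.7 ± 10.4 CPM in aged (SD, n = 12). The rise in lung was smaller than the mean rise in the other 5 tissues (lung minus others -1.29 ± 0.49 SE, adjusted p = 0.0476). Log2 fold changes in adrenal gland, heart, hypothalamus, kidney and muscle were 2.84, 2.83, 4.34, 2.87 and 1.99. At the 4 times with under 10 CPM of Rn7sk in old its log2 fold change was 1.69 and the adjusted p 0.0988, and with a minimum change of 1.5-fold the adjusted p was 0.0549. Of 15 tested chemokines and receptors of lymphoid follicles 10 were higher and none lower, 5 at the 4 times of little Rn7sk (13.9% of all genes) and 4 with the 1.5-fold minimum (3.97%). Cxcl9, an interferon-induced ligand of Cxcr3, rose from 1.37 ± 1.45 to 9.69 ± 7.73 CPM (log2 fold change 2.92 ± 0.49 SE, adjusted p = 2.67e-04) and Cxcr3 itself by 2.20 ± 0.26 SE. Ltb, the lymphotoxin subunit that shapes lymphoid tissue, rose by 0.88 ± 0.19 SE. Cxcr5, the receptor of Cxcl13, did not pass (0.62 ± 0.30 SE, adjusted p = 0.0997).

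Interferon-stimulated genes were higher as a group: 19 of 23 tested were called higher and none lower, with a median log2 fold change of 0.85. Many such genes carry an interferon-stimulated response element next to their start. The 10-base core GAAANNGAAA (TTTCNNTTTC on the other strand; overlapping matches are counted separately) was searched on both strands in the 250 bases before the start. It was found in 10 of the 17 list members with a RefSeq promoter on GRCm38.p6 (58.8%), and in 936 of all 27025 genes with one (3.46%). A match describes letters in a window and does not show that a factor binds there; called genes stood on both sides, since Irf7 held no match and rose (1.70 ± 0.14 SE), and Rsad2 held one and was not called (0.87 ± 0.48 SE, adjusted p = 0.148). The 160 bases before the start of 3 called antiviral members with several matches are shown as examples of the element, read 5′ to 3′ on the gene's strand with the matches in capitals. They lie at chr4:156200819-156200978 (Isg15, minus strand), chr19:34640729-34640888 (Ifit1, plus strand) and chr19:34583369-34583528 (Ifit3, plus strand).
Isg15: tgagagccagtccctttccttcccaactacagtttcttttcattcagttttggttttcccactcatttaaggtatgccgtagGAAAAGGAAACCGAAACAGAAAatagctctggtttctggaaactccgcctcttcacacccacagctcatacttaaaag
Ifit1: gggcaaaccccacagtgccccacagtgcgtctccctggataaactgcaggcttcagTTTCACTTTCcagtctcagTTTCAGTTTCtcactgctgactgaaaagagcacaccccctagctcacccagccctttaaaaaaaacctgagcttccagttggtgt
Ifit3: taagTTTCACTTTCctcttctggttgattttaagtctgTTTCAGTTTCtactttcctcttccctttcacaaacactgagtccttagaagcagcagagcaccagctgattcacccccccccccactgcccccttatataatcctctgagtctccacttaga

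Isg15, the ubiquitin-like modifier with 3 overlapping matches above, was at 10.5 to 27.5 CPM (median 17.4) at 6 months and 19.3 to 57.0 CPM (median 33.1) at 27 months. Ranges overlapped, with old higher at 12 of 12 times (log2 fold change 1.03 ± 0.14 SE, adjusted p = 3.70e-05). Ifit1 and Ifit3, RNA-binding antiviral proteins with 2 matches each, rose by 0.71 ± 0.13 SE and 0.68 ± 0.09 SE. The transcription factor Irf7, which amplifies interferon production and had no match, was at 14.6 to 38.2 CPM (median 20.9) at 6 months and 39.8 to 119 CPM (median 67.6) at 27 months without overlap (log2 fold change 1.70 ± 0.14 SE, adjusted p = 3.49e-07). Among antiviral enzymes Oas3 rose from 3.95 ± 4.89 to 16.5 ± 13.9 CPM (2.23 ± 0.31 SE) and Oas1a by 1.42 ± 0.14 SE. Zbp1, a sensor of nucleic acids, rose by 1.81 ± 0.19 SE. Stat2, which carries the type I interferon signal, rose by 0.39 ± 0.09 SE. The RNA sensors Ddx58 (-0.12) and Ifih1 (0.07) and the effector Ifit2 (-0.02) did not pass. For this list, 9 passed as higher and 2 as lower at the 4 times with under 10 CPM of Rn7sk in old, and 19 as higher without circadian times 34 and 42.

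All 16 genes of antigen presentation were called higher (median 0.70). H2-K1, a classical class I heavy chain, was at 887 to 1139.6 CPM (median 1013) at 6 months and 1318 to 2509 CPM (median 1704) at 27 months. No old library fell into the young range (log2 fold change 0.84 ± 0.09 SE, adjusted p = 5.37e-06). The class II genes H2-Ab1 and H2-Eb1 rose by 0.89 ± 0.12 SE and 0.76 ± 0.11 SE, and the peptide transporter Tap1 by 0.90 ± 0.10 SE. Near-identical class I genes can share reads. Neutrophil genes were higher for 7 of 8 tested (median 1.30), for example S100a9, a calprotectin subunit, at 29.2 to 667 CPM (median 66.0) at 6 months and 89.7 to 591 CPM (median 189) at 27 months (log2 fold change 1.57 ± 0.32 SE, adjusted p = 0.00126). The young library at 30 h held the highest S100a9 value of both groups. Of 14 complement genes 8 were higher and 1 lower (median 0.62), with C3, the central component, rising by 1.09 ± 0.23 SE and C7, part of the terminal complex, falling (-0.56 ± 0.15 SE). At the times of little Rn7sk 2 of the 14 were called higher, a share close to the 13.9% of all genes.

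Nppb, which encodes the heart hormone B-type natriuretic peptide at chr4:147985788-147987205, was low in lung but rose. Values were 0 to 0.620 CPM (median 0.0412) at 6 months, 0.0965 to 15.5 CPM (median 0.921) at 18 months and 0.158 to 18.3 CPM (median 2.30) at 27 months. In 5 young libraries no count was seen, the old libraries at 22 and 46 h lay within the young range, and old was higher at 12 of 12 times. Nppb did not pass the filter on low counts in the 24 libraries. Without that filter its log2 fold change was 5.74 ± 0.50 SE (adjusted p = 5.07e-07). In the fit with the other tissues the lung change exceeded their mean by 6.44 ± 1.60 SE (adjusted p = 0.00239). Heart, where the gene is abundant, changed by 0.50. Nppa, the atrial hormone gene next to Nppb (chr4:148000722-148002079), was at 0 to 73.8 CPM (median 7.202) at 6 months and 11.2 to 556 CPM (median 165) at 27 months (log2 fold change 4.78 ± 0.85 SE, adjusted p = 5.36e-04). The young library at 62 h had none, and the groups overlapped.

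Genes of heart muscle moved with both hormones and are given beside them. Of 11 tested genes shared by heart muscle 7 were called higher and 2, Ttn and Myh7, lower (median 1.26), with sums of 106 to 800.2 CPM (median 333) at 6 months and 152 to 1771 CPM (median 537) at 27 months. The 7 became 4 without the libraries at 26, 30, 38, 50 or 58 h. Of 7 genes of atrial muscle 4 were higher (Myl7, Myl4, Sln and Nppa) and none lower, with sums of 86.4 to 916 CPM (median 351) at 6 months and 189 to 2095 CPM (median 687) at 27 months. The 4 became 1 without 18, 26, 30, 38 or 58 h and 2 without 50 or 54 h, and at the times of little Rn7sk edgeR called 0 higher and 1 lower. Mybpc3, a thick filament protein, rose by 2.49 ± 0.56 SE, while Myh6 at 181 ± 135 and 355 ± 248 CPM (SD, n = 12) did not pass (adjusted p = 0.0625). At the 4 times with under 10 CPM of Rn7sk in old, edgeR called 0 of the 11, with 0 at an unadjusted p under 0.05, and Nppa was not called either (log2 fold change 5.14, adjusted p = 0.178). Set against the sum of the shared genes, Nppa was 0 to 9.26 (median 2.83) percent at 6 months, 1.05 to 24.5 (median 12.8) percent at 18 months and 7.33 to 41.8 (median 28.4) percent at 27 months. Nppb was 0 to 0.0779 (median 0.00673), 0.01997 to 0.761 (median 0.244) and 0.104 to 1.57 (median 0.373) percent. Young and old ranges overlapped for the Nppa ratio and did not for the Nppb ratio, and aged ranges overlapped both for each hormone. Their denominator includes Ttn (-1.18 ± 0.36 SE) and Myh7 (-0.77 ± 0.15 SE), which skeletal muscle also makes, and the summed level of skeletal muscle genes was 199 to 1416 CPM (median 395) at 6 months and 20.4 to 1086 CPM (median 69.0) at 27 months. The part of heart muscle content in the rise of either hormone was not tested. Of their receptors, Npr1, which binds both, was at 183 ± 16.1 and 174 ± 37.5 CPM and was not called (log2 fold change -0.05 ± 0.08 SE, adjusted p = 0.614). Npr2, the receptor of the C-type peptide, fell (-0.56 ± 0.09 SE), as did the clearance receptor Npr3 (-0.44 ± 0.16 SE) and Prkg1, the kinase that cGMP activates (-0.74 ± 0.10 SE).

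Skeletal muscle genes, which lung cells do not make, were lower in old for 11 of 12 tested (median -2.97). Myh4, a fast myosin, was at 60.0 to 402 CPM (median 111) at 6 months and 0.213 to 48.5 CPM (median 5.78) at 27 months (log2 fold change -4.32 ± 0.78 SE, adjusted p = 6.10e-04), and the calcium buffer Pvalb fell (-3.70 ± 0.59 SE). Summed levels were 199 to 1416 CPM (median 395) at 6 months and 20.4 to 1086 CPM (median 69.0) at 27 months, the old maximum being at 34 h. Adipose genes summed to 24.9 to 446 CPM (median 84.1) at 6 months and 36.3 to 419.6 CPM (median 80.7) at 27 months.

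Of 12 genes of capillary endothelium 5 were called lower and none higher, where 27.7% of all genes were lower. Ednrb, an endothelin receptor at chr14:103814625-103844402 that marks a capillary type known for gas exchange, was at 94.5 to 189 CPM (median 136) at 6 months and 39.8 to 65.4 CPM (median 55.5) at 27 months. All old values lay below all young ones (log2 fold change -1.34 ± 0.11 SE, adjusted p = 3.07e-07), and the aged mean of 94.7 ± 20.6 CPM lay between means of 139.8 ± 30.8 and 53.2 ± 8.69. The fall was larger than the mean change in the other tissues (lung minus others -1.02 ± 0.12 SE, adjusted p = 7.30e-10). Aplnr, the apelin receptor of the other main capillary type, was at 26.4 to 90.5 CPM (median 57.1) at 6 months and 11.2 to 40.0 CPM (median 14.9) at 27 months, with the old libraries at 26 and 54 h inside the young range (log2 fold change -1.69 ± 0.19 SE, adjusted p = 7.58e-06). Apln, its ligand, fell from 61.1 ± 14.7 to 25.7 ± 6.80 CPM without overlap (-1.22 ± 0.14 SE). Kdr, the main receptor of vascular endothelial growth factor, fell (-0.34 ± 0.08 SE) and so did Car4, a carbonic anhydrase of the capillary surface (-0.27 ± 0.10 SE). The pan-endothelial genes Pecam1 (0.10 ± 0.11 SE, adjusted p = 0.472), Cdh5 (-0.05 ± 0.12 SE) and Cldn5 (0.04 ± 0.10 SE) did not pass. Without the libraries at 22, 34 or 46 h 1 gene of the list was called higher.

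**Figure D4:**
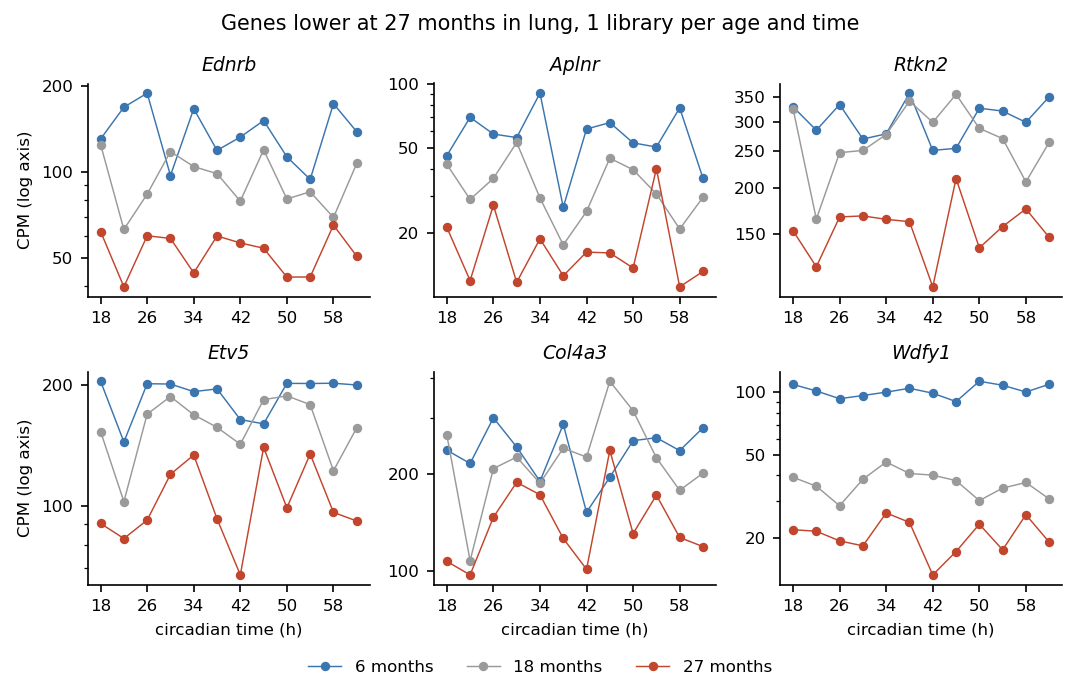
CPM on a log axis against circadian time for 6 genes called lower in old lung, with 1 point per library and 1 colour per age. Old and young do not overlap for Ednrb, Rtkn2, Etv5 and Wdfy1, whose old values reach at most 65.4, 211, 139.7 and 26.4 CPM, while Aplnr and Col4a3 overlap.

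Of 12 alveolar type 2 genes 6 were lower, 1 was higher and 5 were not called. Etv5, a transcription factor that maintains these cells, was at 144.1 to 204 CPM (median 200) at 6 months and 67.4 to 139.7 CPM (median 94.6) at 27 months (log2 fold change -0.85 ± 0.09 SE, adjusted p = 4.79e-06). Slc34a2, the phosphate transporter of type 2 cells, fell from 1770.5 ± 193 to 1119 ± 168 CPM (-0.63 ± 0.09 SE) and Lamp3, of the lamellar bodies that store surfactant, from 686 ± 86.2 to 423 ± 105 (-0.69 ± 0.10 SE). Sftpc, a surfactant protein gene, was instead higher at 4395 to 9886 CPM (median 5582) against 3551 to 4699 CPM (median 4088) (log2 fold change 0.54 ± 0.10 SE, adjusted p = 5.97e-04). It was lower in aged lung, at 2569 to 3644 CPM (median 3196). Sftpb did not pass (0.04 ± 0.08 SE, adjusted p = 0.725). With the times of little Rn7sk alone, 3 genes of the list were called lower, where 18.7% of all genes were. Without the libraries at 18 or 50 h 3 genes of the list were higher. In aged lung 8 of the 12 were lower than in young, against 1.30% of all genes. From aged to old the list did not move 1 way, with 4 of the 12 called higher and 4 lower. Its summed level had medians of 14890 CPM in young, 12510 CPM in aged and 15455 CPM in old lung. Of 10 type 1 genes 4 were lower and 1 higher, the latter count running from 0 to 2 with single times left out. Rtkn2 was at 252 to 359 CPM (median 310.3) at 6 months and 108 to 211 CPM (median 159) at 27 months (log2 fold change -0.94 ± 0.08 SE, adjusted p = 9.74e-07) and the tight junction gene Cldn18 fell (-0.55 ± 0.10 SE). The classical type 1 markers Ager (0.19 ± 0.11 SE) and Hopx (-0.11 ± 0.09 SE) did not pass.

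Most listed genes of ciliated airway cells, and some of secretory airway cells, were higher in old lung. Scgb1a1, the main secreted protein of club cells at chr19:9083636-9087958, was at 1601 to 2072 CPM (median 1952) at 6 months and 2628 to 9213 CPM (median 3625) at 27 months, without overlap (log2 fold change 1.08 ± 0.14 SE, adjusted p = 1.89e-05). Cyp2f2, a club cell monooxygenase, rose by 0.61 ± 0.12 SE. With Scgb3a2 (0.67 ± 0.15 SE) they made 3 of 9 airway secretory genes called higher, with none lower; without the libraries at 38 or 46 h 5 and 6 were. Of 12 genes of ciliated cells 8 were higher and none lower (median 0.63), for example Foxj1, the master regulator of motile cilia, at 142 ± 42.5 and 239.8 ± 62.7 CPM (SD, n = 12; log2 fold change 0.81 ± 0.15 SE, adjusted p = 3.57e-04). The ciliated genes Ccdc39, Dnah5, Dnah9 and Dnah11 were not called, with changes down to -0.31. Without the libraries at 58 h 1 ciliated gene was called lower. Between aged and young edgeR called 0 genes of either list, with 1 ciliated and 3 secretory genes at an unadjusted p under 0.05. Against a minimum of 1.5-fold it called 0 ciliated genes in old, with 5 at an unadjusted p under 0.05. Smooth muscle and mesothelium gave no calls in 8 and 6 genes, with medians of 0.09 and 0.62. No member was under an unadjusted p of 0.05 in edgeR's quasi-likelihood test, and DESeq2 called 0 in each, while at the 4 times of little Rn7sk 1 smooth muscle gene was lower and 1 mesothelial gene higher.

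Many matrix genes fell. In the basement membrane, 10 of 14 genes were lower and 2 higher (median -0.34). Col4a3 and Col4a4, chains of the alveolar type IV collagen network, fell from 238 ± 43.3 to 143.9 ± 41.8 and from 178 ± 31.1 to 107 ± 23.6 CPM (-0.72 ± 0.13 SE and -0.71 ± 0.12 SE). Lama3, a laminin chain of epithelial basement membrane, fell (-0.79 ± 0.14 SE) and so did the proteoglycan gene Hspg2 (-0.52 ± 0.13 SE). Col15a1 rose by 0.69 ± 0.19 SE. Of 18 genes of fibrillar collagens and elastic fibres 10 were lower and 1, elastin (Eln, 0.27 ± 0.08 SE), higher. Col1a2 was at 185 to 339 CPM (median 204) at 6 months and 100.3 to 245 CPM (median 151) at 27 months, with overlap (log2 fold change -0.61 ± 0.13 SE, adjusted p = 0.00125), and the collagen cross-linking enzyme Lox fell (-0.36 ± 0.10 SE). At the 4 times of little Rn7sk, 5 of the 14 and 7 of the 18 genes were called in either direction. Of all genes, 13.9% were called higher and 18.7% lower at those times. The changes were small. Against a minimum of 1.5-fold, edgeR called 0 of the 18 and 0 of the 14 genes, with 0 and 2 at an unadjusted p under 0.05, while 3.97% of all genes passed as higher and 3.76% as lower.

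Alveolar macrophage genes were lower for 6 of 12 tested and higher for 2, Marco and Ctsk (median -0.46). Mrc1, the mannose receptor, was at 63.3 to 108 CPM (median 85.4) at 6 months and 25.0 to 90.1 CPM (median 53.1) at 27 months (log2 fold change -0.62 ± 0.10 SE, adjusted p = 2.27e-04), Fabp1 fell (-1.10 ± 0.24 SE) as did the sialic acid lectin Siglecf (-0.79 ± 0.19 SE). Marco, a scavenger receptor, rose by 0.83 ± 0.32 SE (adjusted p = 0.0467), and its adjusted p ran from 0.0182 to 0.0923 with single circadian times left out. At the 4 times of little Rn7sk 1 of the 6 falls passed.

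Other lists were less uniform. In lipid synthesis 7 of 18 genes were lower and none higher. Only 4 were lower without the libraries at 18, 22 or 42 h, at equal depth or with upper-quartile factors, and up to 3 were higher under alternative settings. Scd2, a stearoyl-CoA desaturase, fell from 1038 ± 146 to 624 ± 81.5 CPM without overlap (log2 fold change -0.69 ± 0.07 SE, adjusted p = 2.88e-06). Of 20 xenobiotic and antioxidant genes 10 were higher and 1 lower. Srxn1, the sulfiredoxin induced by oxidative stress, was at 35.6 to 44.1 CPM (median 40.1) at 6 months and 57.5 to 85.6 CPM (median 75.2) at 27 months (log2 fold change 0.91 ± 0.06 SE, adjusted p = 4.59e-08). Cyp2a5, a coumarin hydroxylase, rose by 2.15 ± 0.39 SE. Senescence and secreted factor genes were called higher for 6 of 14 and lower for 2 (1 without any 1 of 9 of the times). Lmnb1, a lamin known to be lost in senescence, rose by 0.27 ± 0.09 SE, and the cell cycle inhibitor gene Cdkn2b fell (-0.29 ± 0.12 SE), as did Igfbp3. Ccl2 and Gpnmb were also higher. Cdkn1a, which encodes the cell cycle inhibitor p21, rose by 0.70 ± 0.08 SE, Gdf15 by 1.15 ± 0.28 SE and Spp1 (osteopontin) by 0.99 ± 0.12 SE, while Cdkn2a, which encodes p16, did not pass (0.23 ± 0.27 SE, adjusted p = 0.498). Nuclear genes of oxidative phosphorylation were called higher for 13 of 24 at a median of only 0.20, and with the trend over gene length and GC content removed 9 were higher and 2 lower, against 24.8% and 22.5% of all genes. Among clock genes 7 of 17 were lower and 1 higher, averaged over the 12 times. Per3 fell (-0.81 ± 0.09 SE), Ciart (-0.92 ± 0.18 SE) and Per2 (-0.49 ± 0.12 SE) likewise, from levels that cycle widely such as 23.4 to 165 CPM (median 60.0) at 6 months and 17.3 to 87.0 CPM (median 30.8) at 27 months for Per3.

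Long nuclear RNAs and genes of splicing regulators fell together. Malat1, a nuclear long non-coding RNA at chr19:5795690-5802672, was at 1337 to 2260.1 CPM (median 1755) at 6 months and 250.5 to 1079.9 CPM (median 510.0) at 27 months. All old values were below all young ones (log2 fold change -1.61 ± 0.18 SE, adjusted p = 6.50e-06), and the aged mean of 1715 ± 283 CPM lay within 1 SD of the young mean of 1714 ± 300.1. Kcnq1ot1, a long antisense RNA of an imprinted domain, was at 30.1 to 61.5 CPM (median 43.6) at 6 months and 1.51 to 12.1 CPM (median 4.82) at 27 months (log2 fold change -3.16 ± 0.27 SE, adjusted p = 9.74e-07); since the use of strand is not given, its reads and those of Kcnq1 cannot be told apart. Clk1, a kinase of splicing factors whose RNA is largely kept in the nucleus, was at 215 to 327 CPM (median 282) at 6 months and 86.1 to 150.1 CPM (median 109) at 27 months (log2 fold change -1.29 ± 0.08 SE, adjusted p = 1.77e-08). A list of 22 genes was written after the values were seen, from long nuclear RNAs, genes of splicing factors and 3 of the largest falls that are neither (Zbtb20, Ankrd12 and Ttc14). All 22 were called lower (median -1.27), 18 without overlap. They include Clk4 (-1.29 ± 0.07 SE), Pnisr (-1.42 ± 0.10 SE), Luc7l3 (-1.23 ± 0.10 SE) and Rbm25 (-1.25 ± 0.10 SE). The 3 others were Zbtb20, a zinc finger repressor (-1.77 ± 0.14 SE), Ankrd12 (-1.54 ± 0.10 SE) and Ttc14 (-1.52 ± 0.13 SE). Outside the list, Nrep was among the largest falls at a mean of at least 50 CPM (-1.55 ± 0.12 SE). In aged lung 1 of the 22 differed from young, as higher (Snhg11, 0.60 ± 0.14 SE), and all 22 were lower in old than in aged, where 28.1% of all genes were. Since the list was chosen on these old libraries, nothing is read from its counts here or below.

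**Figure D5:**
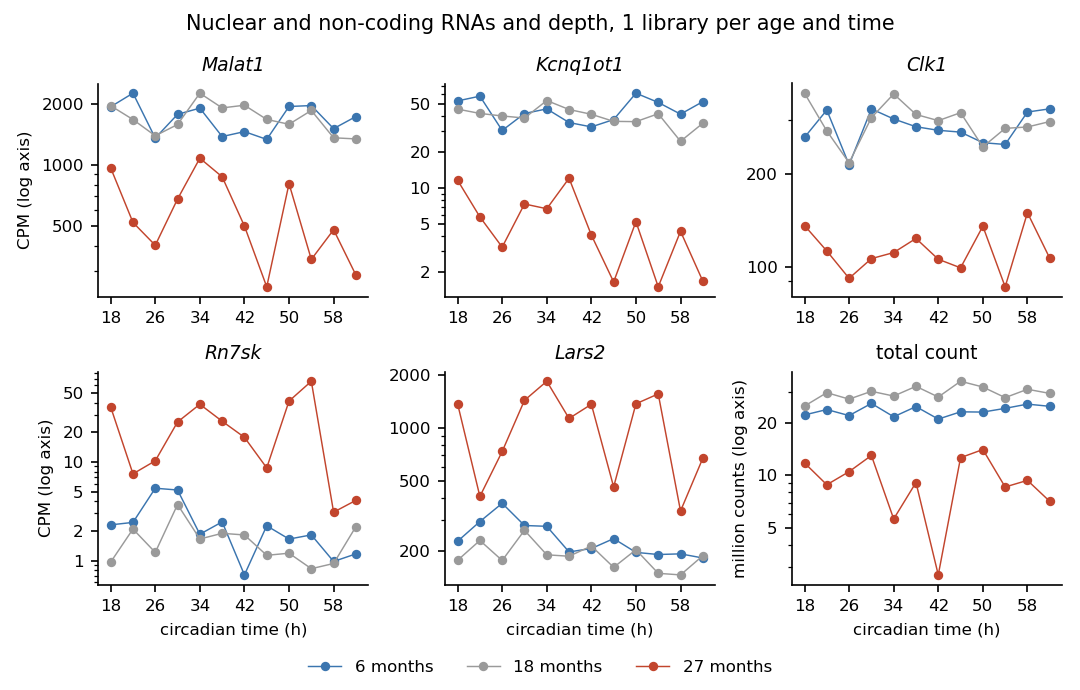
CPM on a log axis against circadian time for 5 transcripts, and the total count per library in units of 1000000, with 1 point per library and 1 colour per age. Malat1, Kcnq1ot1, Clk1 and the total count are lower in every old library than in any young one, while Rn7sk and Lars2 are higher in most, and aged libraries lie with the young for all 5 transcripts.

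Other RNAs moved the opposite way between the young and old groups. Rn7sk, a short nuclear RNA transcribed by RNA polymerase III without a poly(A) tail (chr9:78175303-78175633), was at 0.715 to 5.41 CPM (median 2.05) at 6 months and 3.09 to 65.9 CPM (median 21.6) at 27 months, and at 0.826 to 3.70 CPM (median 1.43) in aged lung (log2 fold change 3.09 ± 0.42 SE, adjusted p = 5.60e-05). It stood at under 10 CPM in the old libraries at 22, 46, 58 and 62 h, times picked after the values were seen. Within the old group, low Malat1 went with little Rn7sk at 46 h (250 and 8.71 CPM) and with much at 54 h (342 and 65.9 CPM). Lars2, a mitochondrial leucyl-tRNA synthetase, was at 182 to 373 CPM (median 216.4) at 6 months and 337 to 1850.4 CPM (median 1252) at 27 months (log2 fold change 2.05 ± 0.26 SE, adjusted p = 2.58e-05). Rn7sk has near-identical copies elsewhere in the genome that could share reads. A poly(A) kit was used for all libraries, per the labels. Depth, Rn7sk and age all differed between the young and old groups, and their parts in the changes of nuclear RNAs were not tested. They did not move together throughout. Aged libraries had a higher median depth than young ones and a lower median of Rn7sk (1.43 against 2.05 CPM). Within the old group the deepest library, at 50 h, held 41.5 CPM of Rn7sk. At the 4 times of little Rn7sk all 22 nuclear RNAs passed as lower. At equal depth all 22 did, where 23.1% of all genes were lower, and with the length and GC trend removed 21.

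Some genes differed most between 6 and 18 months. Nnt, the mitochondrial transhydrogenase gene that is known to differ between C57BL/6 substrains (chr13:119335448-119408997), was at 51.3 to 61.6 CPM (median 57.7) in young, 23.8 to 36.6 CPM (median 25.5) in aged and 17.8 to 30.4 CPM (median 23.1) in old (log2 fold change -1.28 ± 0.08 SE, adjusted p = 3.33e-08). Between old and aged it was not called (-0.14 ± 0.08 SE, adjusted p = 0.149). Ide, insulin-degrading enzyme, was at 66.3 to 95.8 CPM (median 80.5), 96.0 to 187 CPM (median 147) and 112 to 175 CPM (median 141). The predicted genes Gm15446 and Gm42031 gave the largest rise and fall by the naming rule: means were 0.103 ± 0.0777, 13.8 ± 0.955 and 9.0 ± 1.06 CPM (SD, n = 12) for the former and 5.88 ± 1.67, 0.0665 ± 0.0722 and 0.188 ± 0.305 CPM for the latter. Wdfy1, an endosomal adaptor (chr1:79702262-79776143), was at 90.4 to 113 CPM (median 101), 28.6 to 46.4 CPM (median 37.4) and 13.3 to 26.4 CPM (median 20.5), 3 ranges that do not meet (log2 fold change -2.28 ± 0.08 SE, adjusted p = 7.22e-11). All 5 other tissues changed in the same direction for these genes. For Nnt they gave -1.30 in adrenal gland, -0.76 in heart, -1.05 in hypothalamus, -1.36 in kidney and -1.70 in muscle, and lung did not differ from their mean by the test (adjusted p = 1). The labels give 1 strain name for all ages, and whether the groups differ in genotype was not tested. Tcfl5, a basic helix-loop-helix factor (chr2:180621956-180642708), also stepped by 18 months, from 0.0989 ± 0.0778 to 1.63 ± 0.487 and 1.94 ± 0.538 CPM, but in lung more than elsewhere (4.56 ± 0.55 SE, adjusted p = 8.15e-09). Lrmda, at 1.07 ± 0.393, 5.12 ± 0.829 and 6.84 ± 1.13 CPM, and the histone gene Hist1h4m (3.497 ± 0.23 SE), whose near-identical copies can share reads, followed the same order. Falls in 2 steps were seen for Veph1 (3.06 ± 0.772, 0.854 ± 0.248 and 0.330 ± 0.199 CPM) and Phex (-2.80 ± 0.37 SE).

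The old and young lungs were sampled over 2 cycles with different libraries, which allows a test of whether the age difference changed from the first cycle (18 to 38 h) to the second (42 to 62 h). No gene was called by edgeR's quasi-likelihood test, with 701 of 16936 at an unadjusted p under 0.05, and none by DESeq2, with 784. Simulated differences of 2-fold between cycles were recovered for 47.8% of genes, so smaller ones were often not detectable. Between aged and young, 770 of 18334 genes were called (4.20%), and between old and aged 9179 (50.1%). The lung change differed from the mean change of the 5 other tissues for 4737 of 21552 genes, above it for 11.5% and below it for 10.5% of genes tested.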

How the data were processed

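RNA was taken from whole tissue with Trizol and sequenced after an Illumina poly(A) kit, per the labels' protocols. The authors' read counts per gene were made with HISAT2 and HTSeq on GRCm38 (mm10), per the submitters' processing notes. For neither tool is a version, nor for the counts a strand setting, given in the sources used here. The deposited CPM values equalled counts over library totals within 4.98e-06, so the counts were analysed and CPM served for display. All 216 columns were matched to samples by name, and 54486 of 55374 gene names to GENCODE M21 coordinates. Promoter sequences are from RefSeq (GRCm38.p6).

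Counts of the 24 libraries were filtered with filterByExpr (minimum count 10), scaled by TMM and fitted with edgeR 4.0.16 (R 4.3.3) by the quasi-likelihood test with age and 12 circadian times as factors, with Benjamini-Hochberg adjustment. Aged and old lung were compared in a fit of 36 libraries, and lung with 5 other tissues in a fit of 144. SE is the log2 fold change over the root of F. The block is circadian time, a design factor: deviations of same-time libraries from their group means correlated with a median r of 0.0671 (-0.143 to 0.119), over 0.1 at 2 of 12 times. No 2 of the 36 lung libraries (630 pairs) agreed within sampling noise (lowest chi-square per degree of freedom 7.38). On simulated counts at 16827 genes, changes of 1.5, 2 and 4-fold between old and young were recovered for 64.2, 86.6 and 98.5%, with 7 false calls. Depth, 2.70 to 34.5 in units of 1000000 counts, sets the counting error of each value.

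The members and the gene lists were chosen with earlier results of these data known. Named genes had the same sign at all 12 times: the 10 largest called changes per direction with a mean of at least 1 CPM over the 24 libraries, the same at 50 CPM, the 3 largest per direction among predicted genes and variable segments, and, whatever their sign, list members, Nppb, Cxcl13 and Nnt. Some genes that meet the rule are not reported here. Ide, and the lists of platelet genes, nuclear RNAs and RNAs without a poly(A) tail, were added after their values were seen. Alternatives included DESeq2 1.42.0, other scalings, no filter, a 1.5-fold minimum, equal depth, removal of a length and GC trend, and each time left out.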

Additional observations from a re-analysis of the deposited data

Results flagged for a closer look

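In a fit of the young and old libraries of all 6 tissues, the change with age in lung was set against the mean change of the other 5 tissues, and the genes below differed by that test (edgeR's quasi-likelihood test, adjusted p under 0.05). Positive values mean a larger rise or a smaller fall in lung. The differences carry no further test and their causes were not tested.

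Platelet genes rose more in lung, by 1.78 for Gp9, 1.53 for Treml1 and 1.54 for Ly6g6f on the log2 scale. The heavy chain gene Ighm did so by 1.17. Among genes that stepped by 18 months, Tcfl5 differed by 4.56, as it rose by 4.24 in lung and changed by -1.27 to 0.31 in the other tissues, Hist1h4m by 2.37 and Lrmda by 0.53. Cdhr1, a protocadherin best known from photoreceptors, rose from 0.517 ± 0.691 to 3.498 ± 1.93 CPM in lung and differed by 2.80. Rn7sk differed by 3.40 and Nppb by 6.44.

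Falls were larger in lung for Veph1 (-2.72), Phex (-2.79), Kcnq1ot1 (-1.97), Mir99ahg (-1.43) and Wdfy1 (-0.45). Cxcl13 rose less in lung (-1.29). For the skeletal muscle genes Myh4 (-6.94), Myh2 (-5.08) and Pvalb (-4.84), part of the difference comes from the other tissues, since Myh4 changed by 6.08 in adrenal gland.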

How the results depend on the processing

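Without the circadian time block, with a 24 h cosine per age instead (no replicate block), 8842 genes differed between old and young (4052 higher, 4790 lower), 846 between aged and young and 5094 between lung and other tissues, within 1.5 times the counts with the block. Between old and young, 2445 genes were higher at an adjusted p under 0.01, and 1309 passed a 1.5-fold minimum (672 higher, 637 lower). At the 4 times of little Rn7sk 2393 were higher. Calls between aged and young moved most: DESeq2 gave 1380 (858 higher, 522 lower), and the 24 libraries of these ages alone 1962 (1021 and 941). With no filter 1462 genes rose more in lung than elsewhere. With single times left out, calls between old and young ran from 7554 to 8226 (higher 3369 to 4228, lower 3662 to 4624), between aged and young from 490 to 973 (higher 343 to 722, lower 135 to 251, both 490 and 135 being without 58 h and 343 without 42 h), between old and aged from 8162 to 9227 (higher 3491 to 4087, lower 4602 to 5218), and between cycles 0 to 0. The 41 genes named by the rule were mostly chosen in these libraries as large called changes with the same sign at all times. That choice favours kept calls, so nothing is read from their counts. For these 41 genes, 537 values under 14 alternatives and 480 with single times left out kept direction and call. The call was lost in 7 and the direction turned in none. Over all 328 called genes that were named or listed, 3952 values under the alternatives kept both, 583 lost the call and 3 turned, and with single times left out 3644 kept both and 292 lost the call. With single times left out, small list counts also moved: clock genes higher and chaperones lower went as low as 0, and basement membrane genes higher as low as 1. Direction turned, at the times of little Rn7sk, for Col18a1 (-0.033), Ifih1 (-0.37) and Hspa1b (1.04). With the length and GC trend removed (with the replicate block) it turned for Ifit2 (0.23), Idi1 (0.24), Ndufa1 (-0.31), Ndufa2 (-0.42), Ndufb10 (-0.0012), mt-Nd2 (0.36), mt-Nd5 (0.36) and Clock (0.031). The cause was not tested. The shallowest old library, with 2.70 times 1000000 counts, limits what can be seen of genes near 1 CPM.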

Other observations

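Lists not described above were mixed. Over all genes tested, 21.7% were called higher and 27.7% lower. The shares of proliferation, chaperone and immediate early genes called higher lay close to the former. Of 18 proliferation genes 4 were higher (Aurkb, Mcm2, Mcm5 and Hmgb2) and 1 lower (Stmn1, -0.21 ± 0.08 SE), at a median log2 fold change of 0.14. The 4 became 2 without the libraries at 26 or 62 h and 1 without 54 h, and edgeR called 0 at the 4 times of little Rn7sk, with 2 at an unadjusted p under 0.05. Of 16 chaperone genes 4 were higher and 1 lower, Hspa8 rising by 0.29 ± 0.09 SE and Hsp90aa1 falling (-0.34 ± 0.12 SE). Of 11 immediate early genes 2 were higher, Junb and Atf3 (4 without 30 h), and 2 lower, Fosb and Egr2. Among 11 mitochondrially encoded genes mt-Nd3 was higher (0.59 ± 0.23 SE) and mt-Atp6 lower (-0.34 ± 0.14 SE). Nuclear genes of oxidative phosphorylation were called higher in old than in aged lung for 20 of 24, where 22% of all genes were. Their lung change from young to old exceeded the mean of the other tissues for 17, against 11.5% of all genes tested.

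Genes of neighbouring tissues gave few calls. The thyroid gene Tg was higher (0.54 ± 0.20 SE) and 3 other tested genes of thyroid, oesophagus and liver were not called. In adipose tissue Cidea was higher (1.63 ± 0.18 SE) and Cidec lower (-0.54 ± 0.20 SE) of 7 tested. No explanation was tested for any of these values.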
